A study of Mus musculus with 8 samples.

Results

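The 37 genes described here are interferon-stimulated antiviral genes, read across 8 RNA sequencing libraries of mouse bladder. The members are a given list of symbols, taken from the deposited count tables, which hold 38926 symbols each. All 37 symbols were present, all 37 passed the filter on low counts, and every one had at least 36 reads in each library. They comprise 4 transcription factors of the interferon response, 5 nucleic acid sensors, 5 genes of the oligoadenylate synthetase (OAS) family, 3 of the IFIT family, 6 genes of ISG15 and of ubiquitin and ADP-ribose transfer, 5 dynamin-like GTPases and 9 other effectors.

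The study compared bladders of mice with NeMO, a nerve-sparing partial obstruction of the bladder outlet, with bladders of sham-operated mice. Each group has 4 libraries, numbered 1 to 4 here as in the sample titles. RNA was polyadenylated RNA of bladder tissue in both groups, and no other treatment or allele is named for either. The sources used here do not give strain, age, sex or the time between surgery and sampling. Batch marks in the submitted file names place NeMO 1 and 3 with Sham 1, 2 and 3 in batch 1, and NeMO 2 and 4 with Sham 4 in batch 2. Nothing in the labels ties each library to an animal of its own. The p-values therefore judge the group difference only against the spread among these libraries, which may be technical in part.

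Interferons are cytokines released when cells sense foreign or misplaced nucleic acid. Type I and type III interferons act through JAK kinases on a complex that holds STAT2 and IRF9 and binds the interferon-stimulated response element (ISRE) in the promoters of its targets. Interferon-gamma, made mainly by NK and T cells, acts on the gamma-activated site (GAS). The products of the target genes degrade viral RNA, hold back its translation, tag proteins, or trap virions, and several of them also respond to interferon-gamma.

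Promoter sequence describes the genes apart from their levels. RefSeq promoters of build GRCm38.p6, running from 250 bases before to 50 bases after the start of a gene, were matched for 27 of the 37 members. Those not matched were Dhx58, Zbp1, Oas2, Usp18, Parp9, Parp14, Mx1, Mx2, Rtp4 and Ifi27l2a. The ISRE core, searched on both strands as GAAA, any 2 bases and GAAA again, was in 14 of those 27 promoters (51.9%) and in 3.99% of the 27025 genes with a promoter in that table. The GAS letters, searched on both strands as TTC, any 3 bases and GAA, were in 8 of 27 (29.6%) and in 9.55% of all. Below are windows of 90 bases upstream of the start, 5′ to 3′ on the strand of the gene, with every match in capitals. They are shown for some of the genes with a match. Isg15, Ifit1, Ifit3 and Oas3 were lower in every NeMO library than in every Sham library, and Gbp7 was among the highest in Sham 1. Bst2 holds both motifs overlapping each other, and Irf1 and Isg20 hold only GAS letters.
Isg15 (chr4:156200841-156200930, minus strand): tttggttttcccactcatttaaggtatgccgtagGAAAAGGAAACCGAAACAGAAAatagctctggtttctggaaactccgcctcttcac
Ifit1 (chr19:34640754-34640843, plus strand): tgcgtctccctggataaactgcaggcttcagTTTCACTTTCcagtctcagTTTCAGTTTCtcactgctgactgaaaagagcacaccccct
Ifit3 (chr19:34583350-34583439, plus strand): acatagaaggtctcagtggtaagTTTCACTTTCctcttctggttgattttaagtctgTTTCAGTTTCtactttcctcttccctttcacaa
Oas3 (chr5:120777685-120777774, minus strand): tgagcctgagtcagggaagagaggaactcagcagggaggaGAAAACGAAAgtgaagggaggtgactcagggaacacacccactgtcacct
Gbp7 (chr3:142530243-142530332, plus strand): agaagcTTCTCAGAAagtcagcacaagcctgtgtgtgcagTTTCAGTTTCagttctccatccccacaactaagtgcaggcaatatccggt
Bst2 (chr8:71537550-71537639, minus strand): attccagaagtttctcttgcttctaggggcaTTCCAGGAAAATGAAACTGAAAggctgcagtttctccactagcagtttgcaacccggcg
Irf1 (chr11:53769883-53769972, plus strand): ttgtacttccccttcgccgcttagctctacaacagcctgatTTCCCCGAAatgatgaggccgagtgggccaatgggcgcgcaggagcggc
Isg20 (chr7:78913310-78913399, plus strand): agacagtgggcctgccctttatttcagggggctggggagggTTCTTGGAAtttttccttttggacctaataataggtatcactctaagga
The Isg15 window holds 3 overlapping ISRE core matches, and the Ifit1 and Ifit3 windows hold 2 separate ones each.

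Many of the genes also lie side by side (GENCODE M21, GRCm38). Gbp7, Gbp3 and Gbp2 lie within 108 kb on chromosome 3 (142530342 to 142638008), Oasl2 and Oasl1 within 41.0 kb on chromosome 5 (114896936 to 114937915), and Oas2, Oas3 and Oas1a within 177 kb of the same chromosome (120730333 to 120907521). Ifit2, Ifit3 and Ifit1 lie within 99.3 kb on chromosome 19 (34550694 to 34650009), Parp14, Dtx3l and Parp9 within 140 kb on chromosome 16 (35832874 to 35972605), Mx1 and Mx2 within 114 kb of it (97447035 to 97560900), and Rsad2 and Cmpk2 within 37.1 kb on chromosome 12 (26442746 to 26479837). Dtx3l and Parp9 overlap by 682 bases on opposite strands, and as the strand setting of the counting is not known, reads within that stretch cannot be told apart. Reads of the Gbp, Oas1, Ifit3 and Ifi27l2 genes, and of Mx1 and Mx2, may be shared with related genes of similar sequence and their split is uncertain. Mx2 is annotated as a polymorphic pseudogene.

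The libraries held 27212499 to 36375313 counts. Smooth muscle and urothelial markers were abundant in all 8, with a mean of 12901 CPM (reads relative to the TMM-scaled total of each library) for Myh11 and of 1529 CPM for Upk1a. Across all genes, 12 of the 16370 tested passed the test between NeMO and Sham, and without Sham 1 the number was 3 of 16600.

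Sham 1 stood apart from the other 7 libraries in these genes. It was the highest of the 8 libraries for 35 of the 37 members, against 11.1% of all genes tested. Its value was at least 2 times the mean of Sham 2, 3 and 4 for 27 of the 37, against 2.94% of all genes, and no member was 2 times above the rest of its group in any of the other 7 libraries. The mean of the members' log2 CPM was 5.74 in Sham 1, between 4.20 and 4.35 in Sham 2, 3 and 4, and between 3.93 and 4.27 in the NeMO libraries. Summed over the members, the CPM came to 3194 in Sham 1, 1092 to 1194 in the other Sham libraries and 955 to 1122 in NeMO. The exceptions among the 37 were Isg20, with 0.73 times the mean of the other Sham libraries in Sham 1, and Ifi27l2a, with 1.00 times. The difference between NeMO and Sham is therefore given for each member with and without Sham 1. The heat map of all members by library shows it as a single column.

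**Figure D1:**
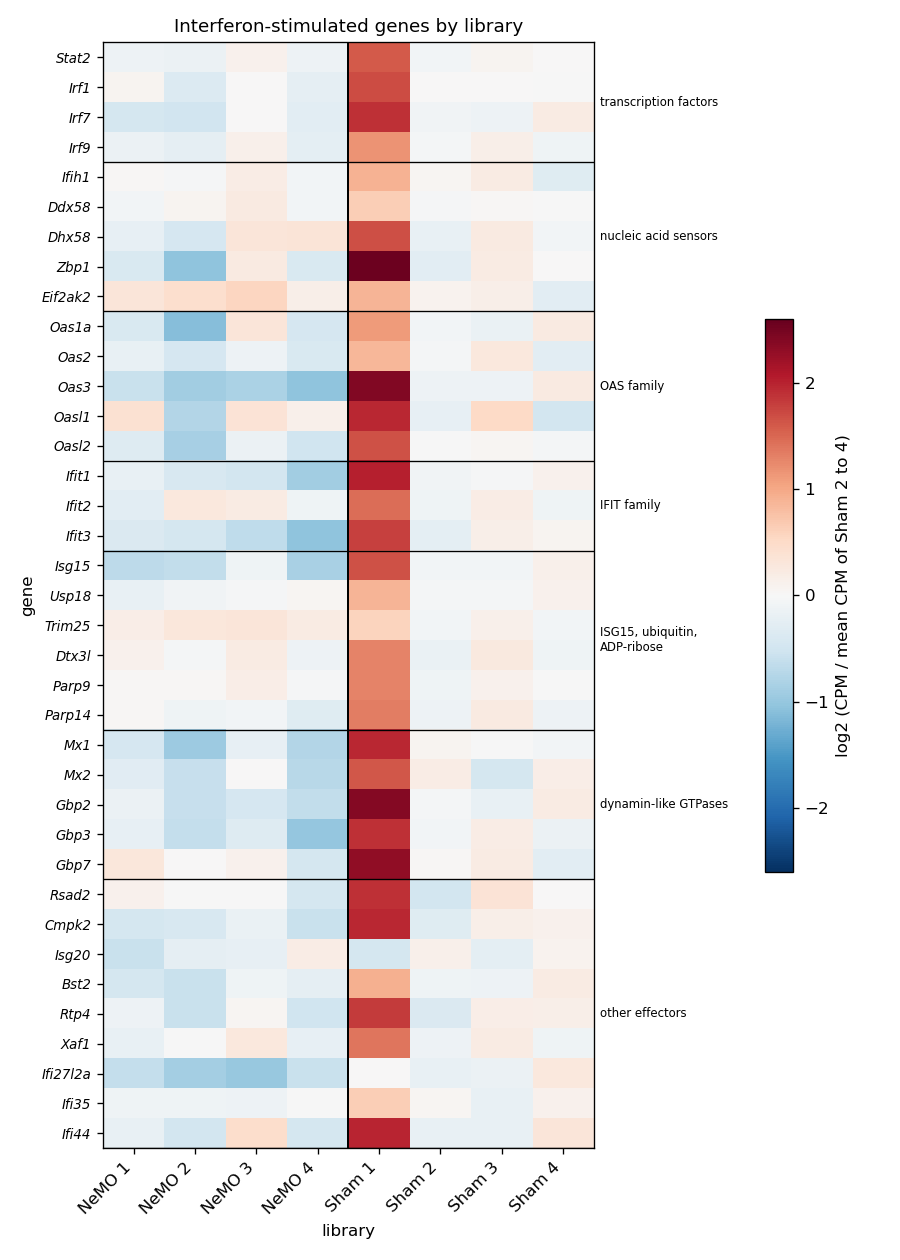
Each cell is the log2 ratio of a gene's CPM in one library to its mean CPM in Sham 2, 3 and 4, for the 37 genes (vertical axis, grouped by role) and the 8 libraries (horizontal axis). The Sham 1 column is red in all genes but Isg20 (ratio 0.73) and Ifi27l2a (ratio 1.00), and is darkest in Zbp1 (ratio 5.89).

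Between NeMO and Sham, 35 of the 37 log2 fold changes (NeMO minus Sham) were below 0, against 51.7% of all genes. Their median was -0.60, with -0.01 over all genes. None of the members passed edgeR's quasi-likelihood test at an adjusted p of 0.05, where 0.0305% of all genes tested were lower and 0.0428% higher in NeMO. The lowest adjusted p among them was 0.0534, for Ifi27l2a. At an unadjusted p under 0.05 there were 4 lower members (Oas3, Isg15, Mx1 and Ifi27l2a), with 9.14% of all genes, and 0 higher ones, with 9.38%. DESeq2's Wald test, with Benjamini-Hochberg adjustment, called 2 members lower in NeMO, Oas3 and Ifi27l2a, where it called 2.72% of all genes lower and 3.60% higher.

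Without Sham 1 the median log2 fold change of the members was -0.11 (-0.00064 over all genes), and 26 of 37 were below 0 (50.1% of all genes). The median standard error of the members' log2 fold changes was 0.42 with Sham 1 and 0.14 without it. Sham 1 stood apart in these very genes, so leaving it out was bound to shrink the spread of most of them. Their p-values without it follow that choice, and the shares over all genes are not a like comparison in that respect. Again 0 members passed edgeR's adjusted test (0.00602% of all genes lower, 0.0120% higher). At an unadjusted p under 0.05 there were 10 lower members, with 8.55% of all genes: Oas3, Oasl2, Ifit1, Ifit3, Isg15, Mx1, Gbp2, Gbp3, Bst2 and Ifi27l2a. Eif2ak2 and Trim25 were the 2 higher ones, with 8.36% of all genes. DESeq2 without Sham 1 called Ifi27l2a lower (2.01% of all genes) and Eif2ak2 higher (2.16%). Oas3 did not pass DESeq2 without Sham 1, with an adjusted p of 0.145.

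Every NeMO library lay below every Sham library for 8 members, against 3.81% of all genes: Oas3, Oasl2, Ifit1, Ifit3, Isg15, Mx1, Gbp3 and Ifi27l2a. No member lay above without overlap (4.39% of all genes). Without Sham 1 the same 8 did not overlap, which follows from the first count, since Sham 1 was the lowest Sham library of none of them, and 7.0% of all genes did so. Eif2ak2 and Trim25 then lay above without overlap, with 6.38% of all genes.

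Within batch 1 the median log2 fold change of the members was -0.73 with Sham 1 and -0.05 without it, where the medians over all genes were -0.014 and -0.00046. Within batch 2, which does not hold Sham 1 and has a single Sham library, it was -0.22, with 0.0066 over all genes. With Sham 1 left out, 21 of the 37 members were lower in NeMO in both batches, against 32.1% of all genes in both fits. Another 9 members were higher in both batches, against 32.9% of all genes. The plot of fold changes sets the fits with and without Sham 1 side by side.

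**Figure D2:**
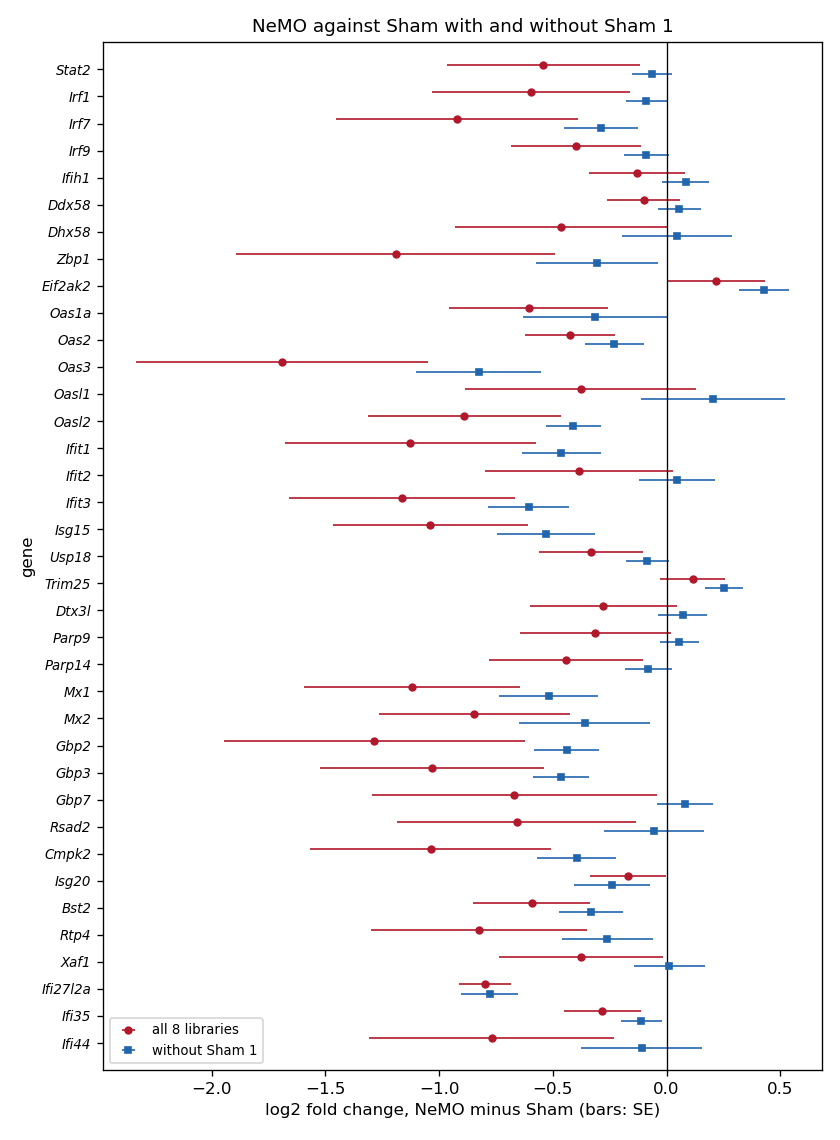
Log2 fold change of each gene, NeMO minus Sham (horizontal axis, bars are 1 standard error), from all 8 libraries (circles) and without Sham 1 (squares), with the 37 genes on the vertical axis. Most squares sit nearer 0 than their circles and carry shorter bars; Ifi27l2a stays near the same place, at -0.80 and -0.78.

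The transcription factors carry the signal from the receptor to the promoters. Stat2, a part of the ISRE-binding complex, had 59.2, 58.1, 69.9 and 59.4 CPM in NeMO 1 to 4 and 196, 61.4, 67.8 and 65.3 CPM in Sham 1 to 4. Only Sham 1 was high, and the other 7 libraries overlapped. Its log2 fold change was -0.54 (SE 0.42, edgeR adjusted p = 0.542), and -0.06 (SE 0.09, adjusted p = 0.756) without Sham 1. Irf7, which amplifies type I interferon production, had 13.2, 12.8, 18.4 and 14.9 CPM in NeMO and 67.8, 17.04, 16.4 and 20.9 CPM in Sham. NeMO 3 lay among Sham 2, 3 and 4, so the groups overlapped. Its log2 fold change went from -0.92 (SE 0.53, edgeR adjusted p = 0.406) to -0.29 (SE 0.16, adjusted p = 0.395) without Sham 1. Irf1, a target of interferon-gamma signalling, and Irf9, the DNA-binding part of the ISRE complex, had log2 fold changes of -0.60 and -0.40, and both were at -0.09 without Sham 1. In Sham 1 the ratio to the mean of the other Sham libraries ran from 2.26 (Irf9) to 3.74 (Irf7) in this group.

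Among the sensors, Zbp1 was the member with the largest ratio of Sham 1 to the mean of the other Sham libraries, 5.89. ZBP1 binds nucleic acid in the Z form and can start necroptosis. It had 4.87, 3.08, 7.52 and 4.84 CPM in NeMO and 37.6, 5.26, 7.45 and 6.46 CPM in Sham. Apart from Sham 1 the groups overlapped, and NeMO 3 was the highest of the 7 remaining libraries. On the log2 scale the difference, NeMO minus Sham, was -1.19 (SE 0.70, edgeR adjusted p = 0.414), and -0.31 (SE 0.27, adjusted p = 0.592) without Sham 1.

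The cytosolic RNA helicases stood lower on that scale. Ddx58 (RIG-I) and Ifih1 (MDA5) sense viral RNA and Dhx58 (LGP2) modulates them. Their ratios of Sham 1 to the other Sham libraries were 1.56, 1.87 and 3.18, and their log2 fold changes were -0.10, -0.13 and -0.46. Without Sham 1 the sign turned in all 3, to 0.06, 0.08 and 0.05, none past the test.

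Eif2ak2 went the other way from most members. It encodes PKR, the kinase that stops translation when it binds double-stranded RNA. It had 40.1, 43.2, 47.5 and 35.8 CPM in NeMO and 59.0, 33.9, 35.8 and 26.4 CPM in Sham. Leaving Sham 1 aside, the 4 NeMO libraries lay above the 3 Sham libraries, though NeMO 4 and Sham 3 were level to 3 digits. NeMO minus Sham was 0.22 on the log2 scale (SE 0.21, edgeR adjusted p = 0.624), and 0.43 (SE 0.11, edgeR adjusted p = 0.144) without Sham 1. DESeq2 without Sham 1 gave an adjusted p of 0.0444. Its value was 0.33 in batch 1 without Sham 1 and 0.59 in batch 2.

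The OAS enzymes make the oligoadenylates that switch on RNase L, an activity that the OAS-like protein OASL1 lacks. Oas3 had 1.58, 1.26, 1.34 and 1.13 CPM in NeMO and 12.5, 2.15, 2.16 and 2.77 CPM in Sham. Every NeMO library was below every Sham library, and Sham 1 was far above the other 3. Its log2 fold change, the lowest of the 37, was -1.69 (SE 0.64, edgeR adjusted p = 0.225), and -0.82 (SE 0.27, adjusted p = 0.203) without Sham 1. DESeq2 gave an adjusted p of 0.0373 with all libraries.

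Oasl2 had 30.2, 20.9, 34.0 and 26.4 CPM in NeMO and 119, 37.7, 39.3 and 36.6 CPM in Sham. The groups did not overlap, with NeMO 3 closest to the Sham libraries. For Oasl2 the log2 fold change was -0.89 (SE 0.42, edgeR adjusted p = 0.322), and -0.41 (SE 0.12, adjusted p = 0.174) without Sham 1. Oas1a, Oas2 and Oasl1 overlapped between the groups, with log2 fold changes of -0.61, -0.42 and -0.38. Without Sham 1 these were -0.31, -0.23 and 0.20, the last with an SE of 0.32 and an edgeR adjusted p of 0.781. Oasl1 and its neighbour Oasl2 then had opposite signs, and whether they differ was not tested.

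IFIT proteins bind viral RNA and block its translation. Ifit1 had 12.6, 10.8, 10.3 and 7.64 CPM in NeMO and 58.4, 13.5, 14.1 and 15.5 CPM in Sham. Ifit3 had 15.3, 14.5, 12.7 and 9.69 CPM in NeMO and 68.3, 16.6, 22.2 and 21.1 CPM in Sham. In both genes all NeMO libraries were below all Sham libraries, NeMO 4 was the lowest and Sham 1 stood 3 to 4 times above the other Sham libraries, at ratios of 4.07 and 3.43. Ifit1 had a log2 fold change of -1.13 (SE 0.55, edgeR adjusted p = 0.332), and -0.46 (SE 0.17, adjusted p = 0.239) without Sham 1. For Ifit3 the values were -1.16 (SE 0.50, edgeR adjusted p = 0.277) and -0.61 (SE 0.18, adjusted p = 0.175). Ifit2, the third gene of the cluster, differed: it had 15.6, 22.9, 22.1 and 17.7 CPM in NeMO and 52.0, 17.6, 21.6 and 17.6 CPM in Sham. Its 7 libraries other than Sham 1 overlapped, and its log2 fold change of -0.39 (SE 0.41) became 0.05 (SE 0.17) without Sham 1. Whether Ifit2 differs from Ifit1 and Ifit3 in its response was not tested.

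ISG15 is a ubiquitin-like modifier, and Usp18 encodes the protease that removes it and also restrains the type I receptor. Isg15 had 4.13, 4.24, 6.09 and 3.68 CPM in NeMO and 20.9, 6.27, 6.32 and 7.22 CPM in Sham. The groups did not overlap, though NeMO 3 was just under Sham 2. Its log2 fold change was -1.04 (SE 0.43, edgeR adjusted p = 0.250), and -0.53 (SE 0.21, adjusted p = 0.265) without Sham 1. Usp18 was even between the groups apart from Sham 1 (44.4 CPM), with 20.9 to 24.7 CPM in NeMO and 23.0 to 25.7 CPM in Sham 2, 3 and 4. The log2 fold change of Usp18 was -0.33, and -0.08 without Sham 1.

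Trim25, a ubiquitin ligase that acts on RIG-I, had 96.2, 104, 105 and 97.9 CPM in NeMO and 127, 80.8, 93.1 and 81.2 CPM in Sham. Without Sham 1 the 4 NeMO libraries were above the 3 Sham libraries. NeMO minus Sham was 0.12 on the log2 scale (SE 0.14, edgeR adjusted p = 0.706), and 0.25 (SE 0.08, adjusted p = 0.202) without Sham 1. The ubiquitin ligase Dtx3l and its partners of the ADP-ribose transferase family, Parp9 and Parp14, had nearly the same ratio of Sham 1 to the other Sham libraries, 2.46, 2.46 and 2.51. Their log2 fold changes of -0.28, -0.31 and -0.44 became 0.07, 0.06 and -0.08 without Sham 1.

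The dynamin-like GTPases act on viral ribonucleoproteins (Mx) and on the membranes around intracellular pathogens (Gbp). They had the highest median ratio of Sham 1 to the other Sham libraries among the 7 roles, 3.87. Gbp2 had 107, 78.9, 87.6 and 76.8 CPM in NeMO and 624, 115, 105 and 138 CPM in Sham. NeMO 1 lay above Sham 3, so the groups overlapped by that library. NeMO minus Sham was -1.28 on the log2 scale (SE 0.66, edgeR adjusted p = 0.358), and -0.44 (SE 0.14, adjusted p = 0.200) without Sham 1. Gbp3 had 43.7, 32.6, 40.2 and 24.99 CPM in NeMO and 189, 48.3, 57.6 and 45.4 CPM in Sham. All of its NeMO libraries were below all Sham libraries, with log2 fold changes of -1.03 (SE 0.49, edgeR adjusted p = 0.324) and, without Sham 1, -0.46 (SE 0.12, adjusted p = 0.151).

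Gbp7, next to Gbp3 on chromosome 3, had 51.6, 42.5, 45.8 and 30.6 CPM in NeMO and 209, 42.9, 48.7 and 34.8 CPM in Sham. It was high in Sham 1 like its neighbours, and its other 7 libraries overlapped. For Gbp7 the log2 fold change was -0.67 (SE 0.62, edgeR adjusted p = 0.612), and 0.08 (SE 0.12, adjusted p = 0.773) without Sham 1. Mx1 had 2.89, 2.05, 3.41 and 2.32 CPM in NeMO and 15.2, 4.12, 3.89 and 3.76 CPM in Sham, with no overlap. The log2 fold change of Mx1 was -1.12 (SE 0.47, edgeR adjusted p = 0.260), and -0.52 (SE 0.22, adjusted p = 0.279) without Sham 1. Mx2 was at 1.69 to 2.80 CPM in NeMO and 2.04 to 3.19 CPM in Sham 2, 3 and 4, so it overlapped. Its log2 fold change was -0.84 (SE 0.42, edgeR adjusted p = 0.320), and -0.36 (SE 0.29, adjusted p = 0.553) without Sham 1.

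Ifi27l2a, a small interferon-induced membrane protein gene on chromosome 12 (103442167 to 103443680, minus strand), was the member whose difference did not involve Sham 1. It had 58.7, 48.7, 45.4 and 59.6 CPM in NeMO and 89.95, 78.9, 81.2 and 109 CPM in Sham. All NeMO libraries were below all Sham libraries and the highest library was Sham 4. Its mean was 53.1 ± 7.15 CPM (SD, n = 4) in NeMO and 89.7 ± 13.7 CPM (SD, n = 4) in Sham. NeMO minus Sham was -0.80 on the log2 scale (SE 0.12, edgeR adjusted p = 0.0534), and -0.78 (SE 0.13, adjusted p = 0.115) without Sham 1. It was -0.62 in batch 1 without Sham 1 and -0.999 in batch 2. DESeq2 put it past the threshold, with an adjusted p of 2.26e-06, and without Sham 1 of 0.000106. With a transcript length trend removed from all 8 libraries, edgeR gave -0.65 (SE 0.12, adjusted p = 0.116).

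Isg20, an exonuclease for single-stranded RNA, was the other member that was not high in Sham 1. It had 12.3, 15.4, 15.8 and 20.7 CPM in NeMO and 13.3, 20.05, 15.3 and 19.3 CPM in Sham. Both groups covered nearly the same range, and Sham 1 was the lowest Sham library. On the log2 scale it differed by -0.17 (SE 0.17, edgeR adjusted p = 0.622), and -0.24 (SE 0.17, adjusted p = 0.492) without Sham 1.

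The neighbours Rsad2 (viperin, which makes a chain-terminating nucleotide) and Cmpk2 (a nucleotide kinase) were 3.75 and 3.88 times higher in Sham 1 than in the mean of the other Sham libraries. Rsad2 had a log2 fold change of -0.66 (SE 0.53), and -0.05 (SE 0.22) without Sham 1. Cmpk2 had one of -1.04 (SE 0.53), and -0.40 (SE 0.18) without Sham 1. Neither passed edgeR's adjusted test in either fit. Bst2 (tetherin), which holds budding virions at the membrane, had 24.3, 22.3, 30.9 and 28.2 CPM in NeMO and 63.2, 30.9, 30.2 and 38.5 CPM in Sham. NeMO 3 lay above Sham 3 and was level with Sham 2. For Bst2 the log2 fold change was -0.59 (SE 0.26, edgeR adjusted p = 0.276), and -0.33 (SE 0.14, adjusted p = 0.280) without Sham 1. Rtp4, Xaf1, Ifi35 and Ifi44, whose products include a chaperone-like restriction factor (Rtp4) and an apoptosis factor (Xaf1), had log2 fold changes of -0.82, -0.38, -0.28 and -0.77. Without Sham 1 they were at -0.26, 0.01, -0.11 and -0.11, and their groups overlapped. The panels of 8 members show the 3 kinds of pattern: a single high Sham library, a shift of the whole group, and neither.

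**Figure D3:**
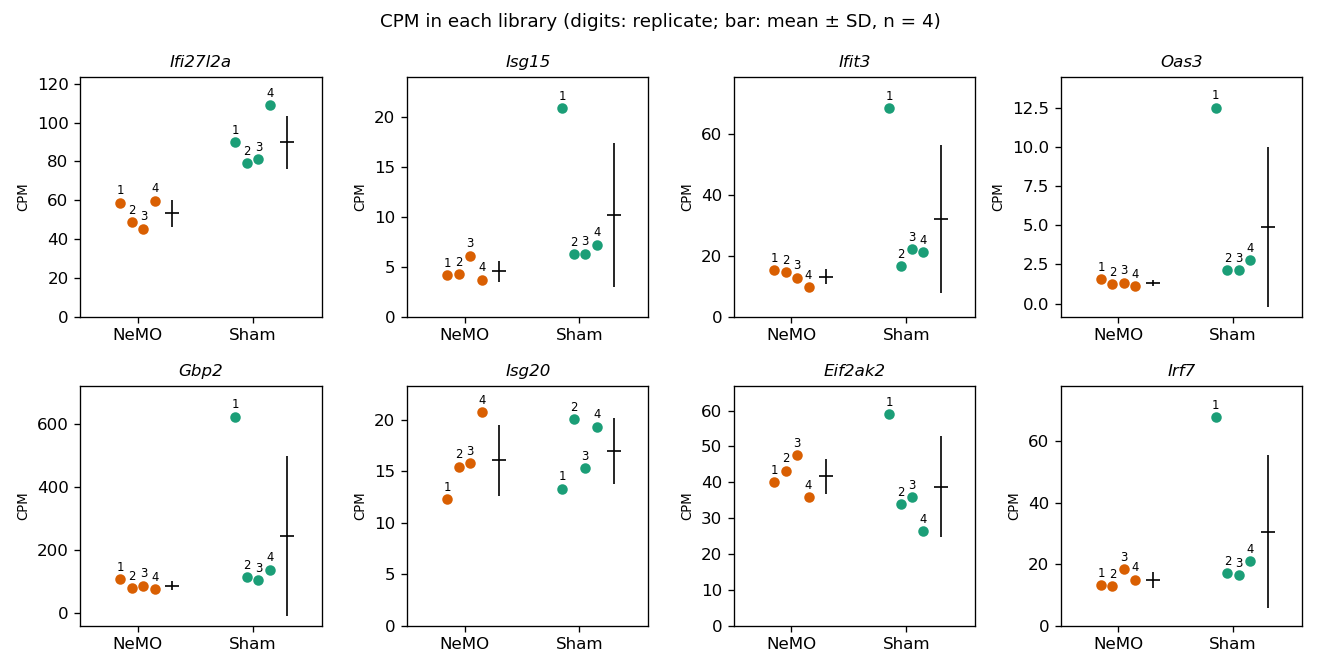
CPM (vertical axis, linear) in each NeMO and Sham library for 8 of the genes, with points numbered by replicate and the bar giving the mean ± SD of 4 libraries. Sham 1 lies far above the rest for Isg15, Ifit3, Oas3, Gbp2 and Irf7, whereas Ifi27l2a separates the groups with Sham 4 on top (109 CPM) and Isg20 separates neither.

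Per length of transcript, Ifi27l2a was also the most abundant member, at a mean of 422 TPM (a length-scaled share of the transcripts) over the 7 libraries other than Sham 1. Gbp2 (115 TPM), Bst2 (106 TPM), Ifi35 (79.4 TPM) and Irf1 (66.7 TPM) came next, and Oas3 was the lowest at 1.06 TPM. Ratios of Sham 1 to the other Sham libraries did not follow this order: Oas3 had 5.30, Gbp2 5.23 and Ifi27l2a 1.00. Among the 27 members with a promoter to search, those with an ISRE core match had a median ratio of 3.30 (1.56 to 5.30). Those searched without a match had one of 2.75 (0.73 to 3.97). In the same 27, members with GAS letters had a median ratio of 2.04 (0.73 to 4.96) and those without of 3.43 (1.49 to 5.30). These ranges overlap, and the absence of a match says only that the letters are not in the window.

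How closely the members moved together depended on Sham 1. As deviations from the group mean of log2 CPM, the mean pairwise Pearson correlation between members was 0.76 over 8 libraries and 0.26 over the 7 without Sham 1, where over all genes it was near 0 in both. The points share their libraries and depth, and the values are descriptions.

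The genes upstream of the members were read next, beginning with the interferons. Of 21 interferon genes looked for, 18 had 0 counts in all 8 libraries, Ifnb1 (interferon-beta) among them. Ifng, which encodes interferon-gamma, had 26 reads in Sham 1 and 2, 9, 0, 1, 0, 1 and 0 reads in NeMO 1 to 4 and Sham 2 to 4, and was too low to be tested. Sham 1 thus had the most Ifng reads, and NeMO 2 was next. Ifne, the epithelial type I interferon, had a log2 fold change of 0.40 (SE 0.68, edgeR adjusted p = 0.795), and 0.45 (adjusted p = 0.806) without Sham 1. Of 11 receptor and JAK-STAT genes 0 passed the test, with or without Sham 1. At an unadjusted p under 0.05 in edgeR, 2 were higher (9.38% of all genes) and 0 lower (9.14%). Without Sham 1 the counts were again 2 higher (8.36% of all genes) and 0 lower (8.55%). The median log2 fold change of that list was 0.013, and 0.036 without Sham 1. Ifnar1 and Ifngr1, a receptor chain each of type I interferon and interferon-gamma, had 1.02 and 1.1 times the mean of the other Sham libraries in Sham 1, and Jak1 and Stat3 had 1.04 and 1.17 times. Their log2 fold changes, NeMO minus Sham, were 0.23, 0.01, 0.08 and 0.01, and without Sham 1 they were 0.24, 0.03, 0.09 and 0.06.

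Of 12 genes that restrain JAK-STAT signalling 0 passed the test, and the most abundant, Ptpn11 and Ptpn1, had log2 fold changes of 0.05 and 0.06, and of 0.04 and 0.09 without Sham 1. The median of that list was 0.032, and 0.046 without Sham 1, where again 0 passed. Socs1, the feedback inhibitor induced by interferon-gamma, was the one gene of that list at least 2 times higher in Sham 1, at 2.58 times the mean of the other Sham libraries, and its log2 fold change was -0.54, and -0.09 without Sham 1. Of 19 genes for nucleic acid sensing and its adaptors 0 passed. An unadjusted p under 0.05 in edgeR was seen for 3 higher (9.38% of all genes) and 0 lower ones (9.14%). The median log2 fold change of that list was 0.043. Without Sham 1 that median was 0.176, with 0 past the adjusted test. At an unadjusted p under 0.05, 4 were then higher (8.36% of all genes) and 0 lower (8.55%). Tlr9 (3.30), Ifi204 (2.29) and Irf8 (2.26) were the 3 genes of that list at least 2 times the mean of the other Sham libraries in Sham 1. Traf3 and Mavs, the adaptors downstream of RIG-I and MDA5, were at 0.16 and -0.17, and at 0.18 and -0.17 without Sham 1.

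Another pair of lists holds genes that interferon induces. Of 47 other interferon-induced genes tested, 0 passed the adjusted test, 42 were below 0 and the median log2 fold change was -0.22, which became 0.03 without Sham 1, with 22 below 0. At an unadjusted p under 0.05 in edgeR, 4 were lower and 1 was higher, with 9.14% and 9.38% of all genes. Without Sham 1, 3 were lower and 2 higher, with 8.55% and 8.36% of all genes. Ly6e and Lgals3bp, the most abundant, were at -0.15 and -0.35, and at -0.01 and -0.17 without Sham 1. The list of interferon-gamma-induced GTPases, chemokines and regulators had 24 genes tested, all 24 below 0 and all 24 highest in Sham 1, with a median log2 fold change of -1.05 and 0 past the test. Without Sham 1 that median was -0.11, with 15 below 0. These genes had a median of 8.64 times the mean of the other Sham libraries in Sham 1, against 3.05 for the 37 members and 1.00 over all genes.

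Single genes of that list were far above the members. Irgm2, an immunity-related GTPase, had 427 CPM in Sham 1 and 30.5 to 51.0 CPM in the other 7 libraries, and its log2 fold change was -1.52 (SE 0.99, edgeR adjusted p = 0.464) and -0.17 without Sham 1. Irgm1, of the same family, went from -1.11 (SE 0.89, edgeR adjusted p = 0.551) to 0.04. Cxcl10, a chemokine that draws T and NK cells, had 0.917, 0.497, 1.89 and 0.498 CPM in NeMO and 29.1, 1.14, 1.83 and 2.24 CPM in Sham. Sham 1 was 16.8 times the mean of the other Sham libraries, and NeMO 3 overlapped them. The log2 fold change of Cxcl10 was -2.69 (SE 1.19, edgeR adjusted p = 0.291), and -0.92 (adjusted p = 0.380) without Sham 1. The strip plot by gene list sets these ratios beside those of the members.

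**Figure D4:**
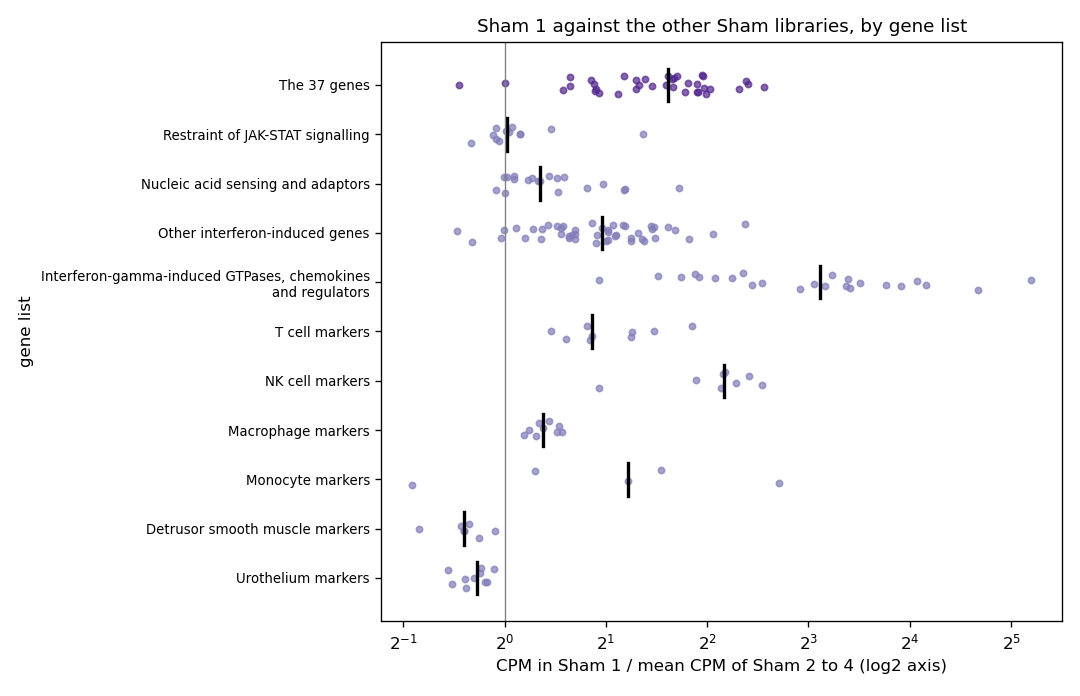
CPM in Sham 1 divided by the mean CPM of Sham 2, 3 and 4 (horizontal log2 axis) for each tested gene of the lists on the vertical axis, with the black bar at the list's median. The 37 genes centre on 3.05, the interferon-gamma-induced list on 8.64 and the NK cell markers on 4.50, while those of the smooth muscle and urothelial lists lie below 1.

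Markers of cells that could carry the response were read in the same way. In these bulk samples fewer cells of a type and less RNA per cell cannot be told apart. The NK cell markers summed to 42.3 CPM in Sham 1, 7.83 to 11.2 CPM in the other Sham libraries and 5.40 to 7.91 CPM in NeMO, and all 8 of 8 were highest in Sham 1. The lowest of them in Sham 1, Eomes, had 1.83 CPM there, and none was at 0 in all libraries. The T cell markers summed to 26.1 CPM in Sham 1 and to 26.1 CPM in NeMO 3, and to 8.66 to 16.1 CPM in the other 6 libraries. The 9 tested T cell markers had a median ratio of Sham 1 to the other Sham libraries of 1.82. Of these, 4 were at least 2 times higher in Sham 1, and 4 were highest there of all libraries. Macrophage markers summed to 1041 CPM in Sham 1 and 372 to 895 CPM elsewhere, with a median ratio to the other Sham libraries of 1.30. Monocyte markers summed to 122 CPM against 55.3 to 105 CPM, with a median ratio of 2.32 and 3 of 5 at least 2 times higher. Conventional dendritic cell markers summed to 49.1 CPM against 18.7 to 45.9 CPM, with a median ratio of 1.89 and 3 of 6 at least 2 times higher. Urothelial and smooth muscle markers had median ratios of 0.83 and 0.76. Markers of some cell types had log2 fold changes, NeMO minus Sham, of the same sign as most members. Over all genes 51.7% were below 0, and 50.1% without Sham 1. Of the markers given here 0 passed edgeR's adjusted test with or without Sham 1. All 5 adipocyte markers were below 0, with a median log2 fold change of -1.18, and -1.06 without Sham 1. They summed to 324 to 1048 CPM in NeMO, 1328 CPM in Sham 1 and 819 to 2373 CPM in the other Sham libraries. Of the 10 urothelial markers 9 were below 0, with a median of -0.37, and -0.39 without Sham 1. At an unadjusted p under 0.05 in edgeR, 6 of the 10 were lower, with 9.14% of all genes. The urothelial markers summed to 5943 to 8839 CPM in NeMO, 7077 CPM in Sham 1 and 7359.6 to 9532 CPM in the other Sham libraries. All 8 NK cell markers were below 0 (median -1.30), and 7 of 8 without Sham 1 (median -0.50). Below 0 were also all 9 macrophage markers (median -0.22) and 4 of 5 monocyte markers (median -0.74). Without Sham 1 these counts were 7 of 9 (median -0.12) and 4 of 5 (median -0.25). Mast cell markers went the other way, with 4 of the 5 tested above 0 and a median of 1.77, and 1.81 without Sham 1. Kit, also expressed by other cells, was the mast cell marker below 0. Of 5 endothelial and 3 tested neutrophil markers 0 were below 0 (medians 0.13 and 0.66). The same held without Sham 1, where 5 neutrophil markers were tested (medians 0.11 and 0.76). The part of these cells in the members' levels was not tested.

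Of the markers of plasmacytoid dendritic cells, which are known as a source of type I interferon, Siglech is the most specific, and Ly6d and Tcf4 are also expressed by other cells. Siglech had 1.03, 0.960, 0.874 and 0.637 CPM in NeMO and 1.65, 1.84, 1.86 and 2.35 CPM in Sham. The groups did not overlap and Sham 1 was the lowest Sham library. For Siglech the log2 fold change was -1.14 (SE 0.28, edgeR adjusted p = 0.108), and -1.20 (adjusted p = 0.146) without Sham 1. Siglech is named here because of its values, and the other genes of its list did not all share its direction. Tcf4 had a log2 fold change of 0.33 (SE 0.11, edgeR adjusted p = 0.171), and 0.40 (adjusted p = 0.147) without Sham 1, while Ly6d was at -0.21, and -0.25 without Sham 1. Ccr9, Cox6a2 and Klk1 were too low to be tested, and Ccr9 had a mean of 0.216 CPM in NeMO and 0.078 CPM in Sham. The part of cells with Siglech in the levels of the 37 genes was not tested.

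Outside the members, the 15 tested genes whose log2 CPM correlated best with the members' mean over the 8 libraries had Pearson's r between 0.978 and 0.991. Of these 9 are in the interferon-gamma list, led by Psmb9 (a subunit of the immunoproteasome) and Tap1 (the peptide transporter of antigen presentation), with Irgm2, Gbp6, Iigp1, Igtp, Cxcl10, Ifi47 and Tgtp1. Samhd1 is in the list of other interferon-induced genes. Another 4, H2-T24, H2-T23, AW112010 and Cd274, are in none of the lists. These are 8 points of which Sham 1 lies far from the rest; over the 7 libraries without it, r for the 15 genes ran from 0.669 to 0.975.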

How the data were processed

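The 37 members and the pathway and marker lists were chosen with earlier results of these data known. Per the labels' protocols, bladder RNA came from a Trizol extraction with DNase digestion and a Bioanalyzer check, and directional polyA libraries were read from a single end. The deposited values are whole-number read counts per gene symbol, 1 table per library, used as the authors deposited them. Tools named in the submitters' processing notes are STAR, featureCounts, Trimmomatic and DESeq2, with mm10 as build. Neither the annotation nor the strand setting nor the handling of reads with several positions is stated in the sources used here.

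The software was edgeR 4.0.16, DESeq2 1.42.0 and limma 3.58.1 under R 4.3.3. The filter on low counts was filterByExpr with the group given (minimum count 10, minimum total 15), and TMM scaled the libraries. Groups were compared in edgeR by the robust quasi-likelihood F-test, two-sided, with batch and group as terms and Benjamini-Hochberg adjustment across all genes tested. SE is the absolute log2 fold change over the root of F. The biological coefficient of variation was 0.186. The script was tested on simulated counts. CPM use TMM-scaled totals, log2 CPM a prior count of 2, and TPM the GENCODE M21 transcript length. Mean pairwise correlations used deviations from group means.

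Named genes were all members, the 2 most abundant genes of each pathway list (or those past the test), Ifng, Ifnb1, Ifnar1, Ifngr1 and Cxcl10, and the genes most and least like the members' mean. A gene that this rule also names is not reported here. Socs1, Tlr9, Ifi204, Irf8, Eomes, Kit and the plasmacytoid dendritic cell markers were added after their values were seen. Alternatives were RLE scaling, DESeq2, no filter, no batch term, each batch alone, a replicate block, removal of a transcript length trend, and leaving out each library. DESeq2 without Sham 1 and batch 1 without Sham 1 were added after the values were seen. Correlations of same-numbered NeMO and Sham libraries ran from -0.01 to 0.32, so the numbers were not taken as pairs.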

Additional observations from a re-analysis of the deposited data

Results flagged for a closer look

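Within each group of 4 libraries, the gap between the highest or lowest library and its neighbour was divided by the group's whole range, and ratios above Dixon's critical value for groups of this size were picked out. Chance alone does so in about 1 in 20 groups. Among Sham libraries 24 of the 37 members had a high library beyond it, Sham 1 in each, where 1.53% of all genes tested did. The ratios were 0.952 for Stat2, 0.988 for Irf1, 0.913 for Irf7, 0.866 for Irf9, 0.917 for Ddx58, 0.870 for Dhx58 and 0.932 for Zbp1. For the OAS and IFIT genes they were 0.939 for Oas3, 0.967 for Oasl2, 0.956 for Ifit1, 0.882 for Ifit2 and 0.893 for Ifit3. For ISG15 and its neighbours in function they were 0.935 for Isg15, 0.874 for Usp18, 0.902 for Parp9 and 0.830 for Parp14. For the GTPases they were 0.969 for Mx1, 0.935 for Gbp2, 0.915 for Gbp3 and 0.920 for Gbp7. For the other effectors they were 0.899 for Cmpk2, 0.870 for Rtp4, 0.850 for Xaf1 and 0.877 for Ifi44.

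In NeMO the ratio was 0.887 for Stat2, where NeMO 3 was high, and 0.849 for Ifi35, where NeMO 4 was high. NeMO 4 lay within the range of Sham for Ifi35, with or without Sham 1. For Stat2, NeMO 3 (69.9 CPM) lay below Sham 1 (196 CPM) and above Sham 2, 3 and 4 (61.4 to 67.8 CPM). No member had a low library beyond the limit in either group.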

How the results depend on the processing

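Without Sham 1, or within batch 2, the sign of the same 9 members turned. In batch 2 alone the log2 fold change was 0.26 for Ifih1, 0.014 for Ddx58, 0.073 for Dhx58, 0.25 for Oasl1, 0.21 for Ifit2, 0.030 for Dtx3l, 0.010 for Parp9, 0.078 for Gbp7 and 0.023 for Xaf1. In batch 1 without Sham 1 the members' median was -0.054, and the signs that turned were 0.039 for Irf1, 0.090 for Ddx58, 0.034 for Dhx58, 0.12 for Oas1a, 0.18 for Oasl1, 0.10 for Dtx3l, 0.092 for Parp9, 0.089 for Gbp7, 0.064 for Rsad2, 0.039 for Rtp4, 0.012 for Xaf1 and 0.37 for Ifi44. With DESeq2 and no Sham 1 they were 0.089 for Ifih1, 0.062 for Ddx58, 0.051 for Dhx58, 0.21 for Oasl1, 0.051 for Ifit2, 0.077 for Dtx3l, 0.061 for Parp9, 0.087 for Gbp7 and 0.018 for Xaf1. Leaving out 1 library at a time gave -0.33 to 0.085 for Ifih1, -0.17 to 0.056 for Ddx58, -0.73 to 0.046 for Dhx58, -0.67 to 0.20 for Oasl1, -0.69 to 0.046 for Ifit2, -0.44 to 0.072 for Dtx3l, -0.48 to 0.056 for Parp9, -1.04 to 0.081 for Gbp7, -0.58 to 0.013 for Xaf1 and -0.75 to -0.11 for the members' median, the upper ends without Sham 1. Ddx58 was also above 0 without NeMO 1, at 0.0031.

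Of all genes, 953 passed with DESeq2, 652 with DESeq2 and no Sham 1, 172 with no filter on low counts, 7 without the batch term, 7 in batch 2, and 0 in batch 1 with or without Sham 1 (edgeR; at an unadjusted p under 0.05, 763 lower and 993 higher, and 666 lower and 744 higher). Leaving out 1 library gave 0 to 652 genes, the most without NeMO 1. Of the members, 2 passed with DESeq2, 2 with DESeq2 and no Sham 1, 1 with no filter, and 0 to 1 with a library left out. That member was Ifi27l2a, without NeMO 1 or without NeMO 2. With the replicate number as a block in place of batch 0 genes passed, and with the block and batch together 2, with 0 members called in both and medians of -0.55 and -0.60. The block with batch put Isg20 at 0.0093. Where no value shows it, the cause was not tested. All members kept their direction with RLE scaling, no filter, no batch term and the length trend removed. That trend was higher in every NeMO library than in every Sham library. The Spearman correlation of transcript length with a library's deviation in log2 CPM was 0.26, 0.07, 0.20 and 0.002 in NeMO 1 to 4. In Sham 1 to 4 it was -0.002, -0.24, -0.09 and -0.27. With the trend removed, Ifi27l2a went from -0.80 to -0.65 (edgeR adjusted p = 0.116). Oas3 and Ifih1 moved away from 0, to -1.72 and -0.20.

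Precision was limited by 4 libraries a group, by a single Sham library in batch 2, and for Oas3, Oasl1, Mx1 and Mx2 by low levels.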

Other observations

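The 5 tested genes whose log2 CPM ran most against the members' mean over the 8 libraries were Cyb5d1, Dbp, Tef, Pthlh and AI854703, with Pearson's r from -0.98 to -0.93 as a description. Dbp and Tef encode related transcription factors of the circadian clock's output. Dbp had 85.0 CPM in Sham 1 and 194 to 254 CPM in the other 7 libraries, and Tef had 176 CPM in Sham 1 and 295 to 353 CPM in the others. Both were lowest in Sham 1. Without Sham 1 their correlations with the members' mean were -0.47 and -0.27. Cd274, which encodes the checkpoint ligand PD-L1, had 50.5 CPM in Sham 1 and 6.06 to 9.61 CPM in the others. H2-T23, a nonclassical MHC class I gene, had 211 CPM in Sham 1 and 99.8 to 113 CPM in the others.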
